A study of Homo sapiens with 5 samples.

Results

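The genes described here are the well expressed ZNF genes, 138 of the 14812 named genes measured on 5 whole-transcript arrays of irradiated LNCaP cells. A member carries a symbol made of ZNF, a number and at most 1 letter, is protein-coding, does not lie on chromosome 21, and has a mean log2 intensity above 6 over all 5 arrays. Members were thus chosen by their measured mean level over the 3 shRB and 2 shControl arrays described below. This mean weighs shRB more, so near the threshold the choice is not independent of the difference between groups. On shControl alone 18 members were not above 6, and on shRB alone 6 were not. Of 467 protein-coding ZNF genes off chromosome 21, the other 329 were dimmer, and 6 further ZNF symbols above the threshold were dropped, 4 of them antisense, 1 a pseudogene and 1 a readthrough transcript.

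LNCaP is a human prostate cancer cell line that responds to androgens. Both groups were made by retroviral delivery of a short hairpin under puromycin selection, both received 10 Gy of ionizing radiation, and RNA was taken 24 h later. The shRB group (3 arrays) carried a hairpin against RB, the retinoblastoma tumour suppressor, and the shControl group (2 arrays) a scrambled one. No unirradiated cells are compared here, so a difference is one between 2 irradiated populations. Nothing in the labels says whether the arrays stand for separate cultures, or how many hairpins or clones were used, so the p-values measure only the spread between these arrays, which may be technical.

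C2H2 zinc finger proteins form the largest family of human transcription factors. Each finger folds around a zinc ion held by cysteines and histidines, and an array of fingers reads a stretch of DNA. Many members also carry a KRAB domain, which recruits the corepressor TRIM28 (KAP1) and through it histone deacetylases, the methyltransferase SETDB1 and HP1 proteins, and many of these repressors silence transposable elements. KRAB genes arose largely by tandem duplication, and the long clusters of them on chromosome 19 are the result. Some proteins with a ZNF symbol do other work, in ribosome assembly, RNA processing or the spindle. Close copies may share probe signal, and this was not tested.

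RB1, the target of the hairpin, had log2 intensities of 5.16, 5.28 and 5.20 in the shRB arrays, against 5.81 and 5.70 in the shControl arrays. The groups did not overlap, with shRB the lower, but the difference of -0.54 (SE 0.14) did not pass over all genes (limma adjusted p = 0.0967). RB1 was thus lower in the arrays labelled shRB, without passing the test. On the deposited scale it was 1.46-fold lower. With an apparent constant of 16 in the deposited values taken off, it was 1.80-fold lower. With 16 subtracted and 4 added before the test it also did not pass (limma adjusted p = 0.173). The arrays had medians of 26.6 to 28.1 intensity units. Of the luminal prostate markers, 7 of 12 were measured, and KLK3, which encodes prostate-specific antigen, stood at log2 10.06 to 10.09 in shRB and 10.09 to 10.17 in shControl. The summed linear level of the 7 was 3313 to 3413 in shRB and 3359 to 3570 in shControl. For 3 of 4 basal markers it was 89.8 to 109 in shRB and 91.0 to 110 in shControl. For 4 of 8 mesenchyme markers it was 863 to 901 in shRB and 1574 to 1598 in shControl, and all 4 passed (limma, Benjamini-Hochberg), FN1, TWIST1 and VIM lower in shRB and SNAI2 higher. For 2 of 7 blood and endothelium markers it was 177 to 193 in shRB and 158 to 233 in shControl. The part of the mesenchyme markers in the results below was not tested. In bulk RNA, fewer cells of a type and less RNA per cell cannot be told apart.

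The share of ZNF genes that passed between shRB and shControl cells was near that of all genes. Of the 138, 1 (0.725%) was higher in shRB and 0 were lower (limma, Benjamini-Hochberg over all 14812 genes). Of all genes, 0.695% were higher and 0.378% lower (1.07% in either direction). Of the 4751 other genes above the same threshold, 0.884% were higher and 0.379% lower (1.26% in either direction). At an unadjusted p under 0.05, 13 were higher and 9 lower. These are 9.42% and 6.52% of the members, against 10.9% and 7.22% of all genes and 12.8% and 8.99% of the others above the threshold. The median difference of the 138 was 0.03 on the log2 scale, with 77 positive and 61 negative, and the median over all genes was 0.02, with 53.8% positive. The others above the threshold had a median of 0.02, with 52.2% positive. The member medians of the arrays were 6.49, 6.55 and 6.52 in shRB and 6.56 and 6.51 in shControl.

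**Figure D1:**
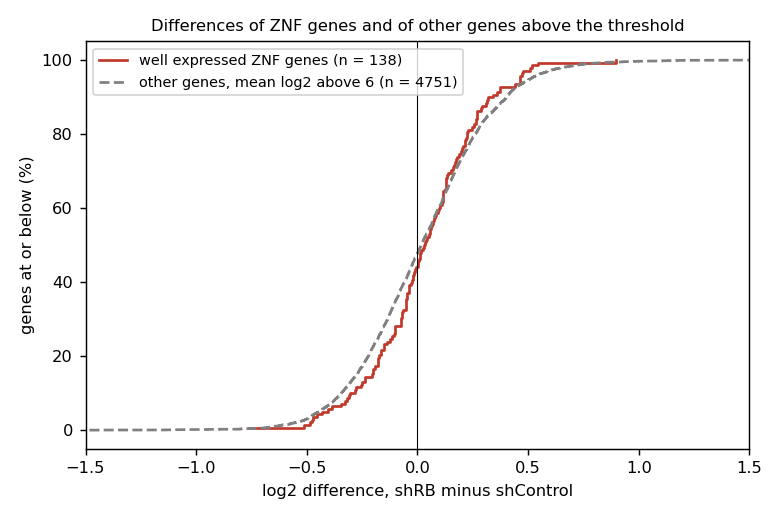
Cumulative share of genes (percent, vertical axis) by log2 difference, shRB minus shControl (horizontal axis), for the 138 ZNF genes (solid line) and the 4751 other genes with a mean log2 intensity above 6 (dashed line). The curves cross zero close together, with medians of 0.03 and 0.02, and the ZNF curve has the shorter tails. The farthest of the other genes lie outside the axis.

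Large differences were few among them. Only 6 of the 138 (4.35%) differed by more than 0.5 on the log2 scale in either direction, and the range ran from -0.76 for ZNF8 to 0.90 for ZNF827. Among the 4751 other genes above the same threshold, 8.50% differed by more than 0.5, from -2.22 to 1.56. The share was 7.64% among all genes and 7.60% among the 329 dimmer ZNF genes. Array medians were 6.49 to 6.56 for the members and 7.06 to 7.14 for the other genes above the threshold. The part of brightness in these shares was not tested. These shares are descriptions without a test.

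The gene that rose was ZNF827, on chromosome 4. Its protein recruits the NuRD chromatin remodelling complex to telomeres that are maintained by recombination, the alternative lengthening pathway. ZNF827 had log2 intensities of 6.97, 6.94 and 7.07 in the shRB arrays and 6.12 and 6.08 in the shControl arrays. The groups lay far apart, and the arrays of each group lay close together. Mean log2 intensity was 6.99 ± 0.07 over the 3 shRB arrays and 6.10 ± 0.03 over the 2 shControl arrays (SD). The difference of 0.90 (SE 0.14, 95% interval 0.58 to 1.21) is 1.86-fold on the deposited scale (limma adjusted p = 0.0169). The deposited values carry an apparent constant of 16 that compresses folds, and with it taken off ZNF827 was 2.12-fold higher. When any single shRB array was left out it failed the test (adjusted p = 0.105 to 0.142), while leaving out 1 array of either group kept the difference at 0.86 to 0.92. It also did not pass with the constant subtracted before the test (adjusted p = 0.115).

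Among the other chromatin regulators none passed (limma), with differences from -0.24 to 0.27. ZNF217, a breast cancer oncogene that works with the LSD1 and CoREST repressors, had 8.42, 8.52 and 8.33 in shRB and 8.43 and 8.53 in shControl, so that the groups overlapped. ZNF644, a partner of the histone methyltransferases G9a and GLP, differed by -0.24 (adjusted p = 0.485). ZNF592, ZNF687 and ZNF532, which form a complex with the histone reader ZMYND8, differed by 0.16, -0.04 and 0.21 and did not pass. ZNF638, which silences unintegrated retroviral DNA through the HUSH complex, stood at 0.27 (adjusted p = 0.399). ZNF91, a KRAB repressor of SVA retroelements, stood at 0.20, and ZNF445, a KRAB keeper of genomic imprints, at 0.16 on its brighter probe set. The dimmer probe set of ZNF445 averaged 5.57 in shRB cells and 4.96 in shControl cells, and its difference of 0.61 did not pass in the test of all named probe sets (limma adjusted p = 0.139). Of these 9 genes, counted with ZNF827, 1 passed, 6 differences were positive and the median was 0.16, where 1.07% of all genes passed, 53.8% were positive and the median was 0.02. The arrays of 3 of the 9 lay wholly higher in shRB and those of 0 wholly lower, against 20.6% and 15.4% of all genes.

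Members with a role in DNA damage are of interest here because all cells had been irradiated. ZNF350, also called ZBRK1, is a KRAB repressor that acts with BRCA1 on damage-response genes. ZNF350 had 6.73, 6.55 and 6.48 in shRB and 6.50 and 6.33 in shControl. The groups overlapped by 1 array, and the difference was 0.17 (95% interval -0.16 to 0.51, limma adjusted p = 0.588). ZNF384, which recruits Ku to broken ends, differed by 0.13 on its brighter probe set and by -0.06 on its dimmer one. ZNF281, a stemness factor that also acts in end joining, differed by 0.06. The SUMO ligase ZNF451, which helps to resolve trapped topoisomerase 2, differed by -0.05 on its brighter probe set. Its dimmer probe set averaged 5.82 in shRB cells and 5.00 in shControl cells, and this difference of 0.82 did not pass in the test of all named probe sets (limma adjusted p = 0.0572). On the probe sets that stood for the genes, 0 of these 4 passed, where 1.07% of all genes did. Each interval of those probe sets leaves room for a change in either direction. The dimmer probe set of ZNF451 had an unadjusted p of 0.00065 (limma), so this does not hold for it.

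Proteins of this name with work on RNA or the spindle gave values on both sides of zero. Of these 5, 0 passed (limma), where 1.07% of all genes did. The arrays of 2 of the 5, ZNF622 and ZNF207, lay wholly lower in shRB and those of 0 wholly higher. Of all genes, 15.4% lay wholly lower and 20.6% wholly higher. ZNF622, which releases a shuttling factor during the maturation of the large ribosomal subunit, had 6.67, 6.63 and 6.49 in shRB, against 7.02 and 7.08 in shControl. All shRB arrays lay below both shControl arrays, with a difference of -0.46 (limma adjusted p = 0.143). ZNF207 (BuGZ), which loads the checkpoint protein BUB3 onto kinetochores, had 8.70, 8.64 and 8.60 in shRB and 8.92 and 8.94 in shControl, and its difference of -0.28 did not pass (adjusted p = 0.325). ZNF593, of large-subunit assembly, stood at 0.04, the RNA processing factor ZNF326 at 0.06 and ZNF598, the ubiquitin ligase that senses collided ribosomes, at 0.22.

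Among further regulators of transcription, 0 of 7 passed. ZNF143, an activator of small nuclear RNA and many housekeeping promoters, differed by 0.31 (adjusted p = 0.462), with shControl arrays as far apart as 6.19 and 6.73. ZNF410, whose main target is the remodeller CHD4, differed by 0.07, and CHD4 itself by -0.39 (adjusted p = 0.302). ZNF148 stood at -0.07, ZNF24 at -0.08, the luminal breast cancer oncogene ZNF703 at 0.09, ZNF423, a partner of EBF factors, at -0.15, and ZNF652, a repressor, at -0.33. The arrays of ZNF652 and ZNF423 lay wholly lower in shRB and those of 0 of the 7 wholly higher, where 15.4% and 20.6% of all genes did so. Of the 7 differences 3 were positive, 0 passed (limma, Benjamini-Hochberg, 1.07% of all genes), and 0 had an unadjusted p below 0.05.

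The arrays of 24 members did not overlap between groups with shRB higher, and those of 21 with shRB lower. These are 17.4% and 15.2% of the members, against 20.6% and 15.4% of all genes and 24.5% and 20.7% of the others above the threshold. With members chosen on shControl alone, 15 of 128 lay wholly higher. That choice favours genes that are high in shControl, so it works toward lower values in shRB. Apart from ZNF827, the highest 3 were ZNF124, ZNF385B and the chromosome 19 gene ZNF440, and none of these passed. ZNF124 had 6.27, 6.25 and 6.65 in shRB and 5.67 and 6.02 in shControl (log2 difference 0.54, adjusted p = 0.152). ZNF385B had 6.46, 6.33 and 6.49 in shRB and 5.82 and 6.003 in shControl (0.52, adjusted p = 0.112). ZNF440 had 6.31, 6.12 and 6.27 in shRB and 6.06 and 5.38 in shControl (0.51, adjusted p = 0.208). The shControl arrays of ZNF440 had an SD of 0.48, and the gene passed only without shControl replicate 1 among the 5 fits that leave out an array (adjusted p = 0.0355). The next 8 were ZNF236, ZNF142, ZNF43, ZNF518B, ZNF219, ZNF480, ZNF320 and ZNF408, with differences of 0.47 down to 0.36 and adjusted p-values of 0.15 to 0.272. The shControl means of ZNF124, ZNF385B, ZNF440, ZNF236, ZNF142, ZNF43 and ZNF408 were 5.72 to 5.94, so these genes exceeded the threshold of 6 only through their shRB arrays and had to differ in this direction. Among the wholly lower members, ZNF776, ZNF441 and ZNF570 had shRB means of 5.82, 5.93 and 5.98. They exceeded the threshold only through their shControl arrays and had to be lower in shRB.

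**Figure D2:**
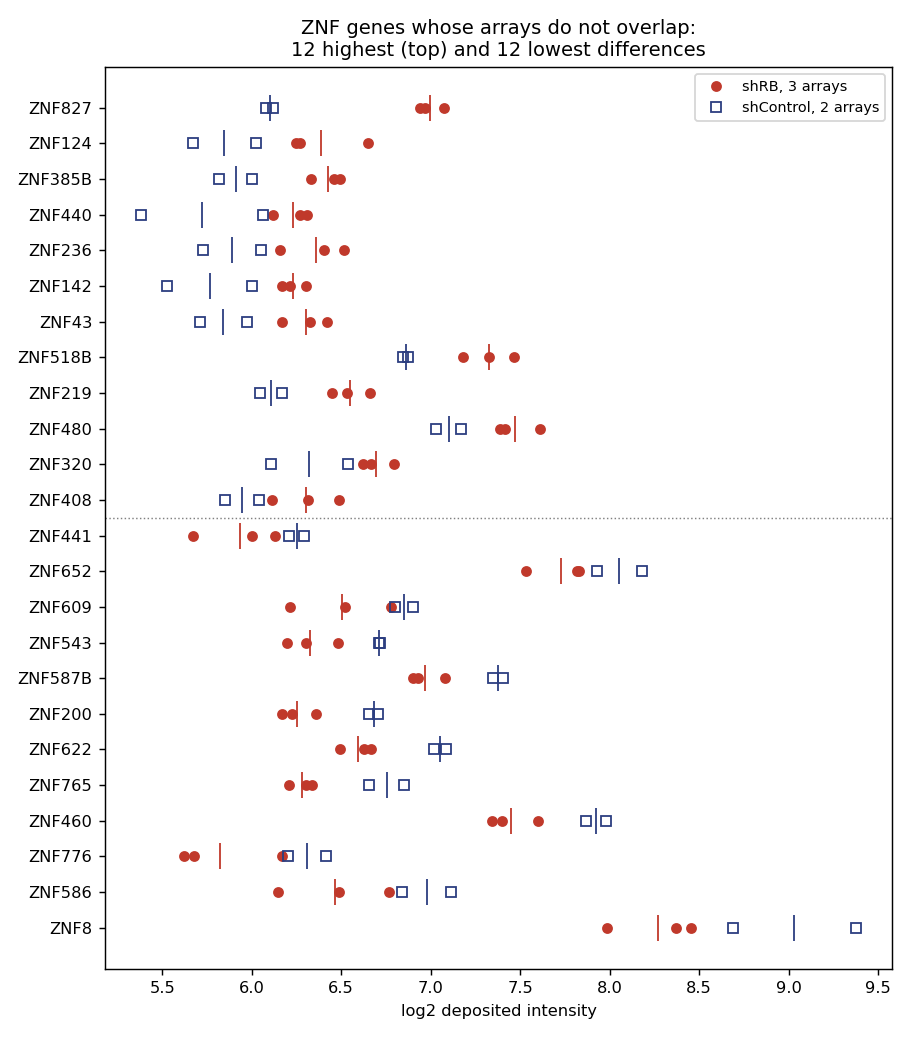
Log2 deposited intensity (horizontal axis) of the 12 highest and 12 lowest differences among ZNF genes whose arrays did not overlap. Filled circles are the 3 shRB arrays, open squares the 2 shControl arrays and vertical ticks the group means; ZNF827 at the top, with 6.94 to 7.07 in shRB and 6.08 to 6.12 in shControl, is the only one past the threshold.

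The lowest difference was that of ZNF8, a KRAB gene near the long arm end of chromosome 19. ZNF8 had 8.46, 8.37 and 7.98 in the shRB arrays and 9.38 and 8.69 in the shControl arrays. The groups did not overlap, but the shControl arrays differed from each other nearly as much as from shRB. Mean log2 intensity was 8.27 ± 0.25 over the 3 shRB arrays and 9.03 ± 0.49 over the 2 shControl arrays (SD). The difference was -0.76 (SE 0.22, 95% interval -1.24 to -0.29, limma adjusted p = 0.108). ZNF8 passed with an intensity trend and robust variances (adjusted p = 0.0122) and without shControl replicate 2 (adjusted p = 0.0346). A readthrough gene, ZNF8-ERVK3-1, overlaps it, and both transcripts may share probes.

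Of the 12 lowest members with arrays that did not overlap, 8 lie on chromosome 19. After ZNF8 came ZNF586 (log2 -0.51), ZNF776 (-0.49), ZNF460 (-0.48), ZNF765 (-0.47), ZNF587B (-0.41), ZNF543 (-0.39) and ZNF441 (-0.32). Off that chromosome were ZNF622, ZNF200 (-0.43), ZNF609 (-0.35) and ZNF652. Adjusted p-values of these 12 ranged from 0.108 to 0.346, so none passed (limma). ZNF776 and ZNF441, with shRB means of 5.82 and 5.93, were members only through their shControl arrays and had to be lower in shRB. Chromosome 19 held 66 of the 138 members and 19 other chromosomes held 72. The median difference was -0.02 on chromosome 19, with 31 of 66 positive, and 0.09 elsewhere, with 46 of 72 positive. On chromosome 19 the arrays of 12 members lay wholly higher in shRB and those of 13 wholly lower. Elsewhere these counts were 12 and 8. Of all genes, 20.6% lay wholly higher and 15.4% wholly lower. The 241 genes of chromosome 19 above the threshold whose symbols do not start with ZNF had a median of -0.07, with 43.2% positive. Lower values on this chromosome were thus seen in other genes too.

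Members at the long arm end of chromosome 19 mostly had negative differences. The 66 members were put in gene order and divided into 6 consecutive runs of 11, a division made after the values were seen and given without a test. In the last run, from ZNF543 to ZNF324B at the long arm end, 10 of 11 differences were negative and the median was -0.30. Those of ZNF776 and ZNF772 had to be negative, as their shRB means of 5.82 and 5.99 lie below the threshold of 6. The other 55 members on the chromosome had 30 positive differences and a median of 0.01, with run medians between -0.05 and 0.08. In the last run the arrays of 5 members lay wholly lower in shRB and those of 0 wholly higher, where 15.4% and 20.6% of all genes did so. Array medians of that run were 6.77, 6.49 and 6.52 in shRB and 6.84 and 6.87 in shControl, so the shRB replicate 1 array lay nearest the controls. Without shControl replicate 1, 4 of the 11 differences were positive. ZNF547 was the exception, with 7.23, 7.18 and 7.40 in shRB and 7.20 and 6.90 in shControl.

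**Figure D3:**
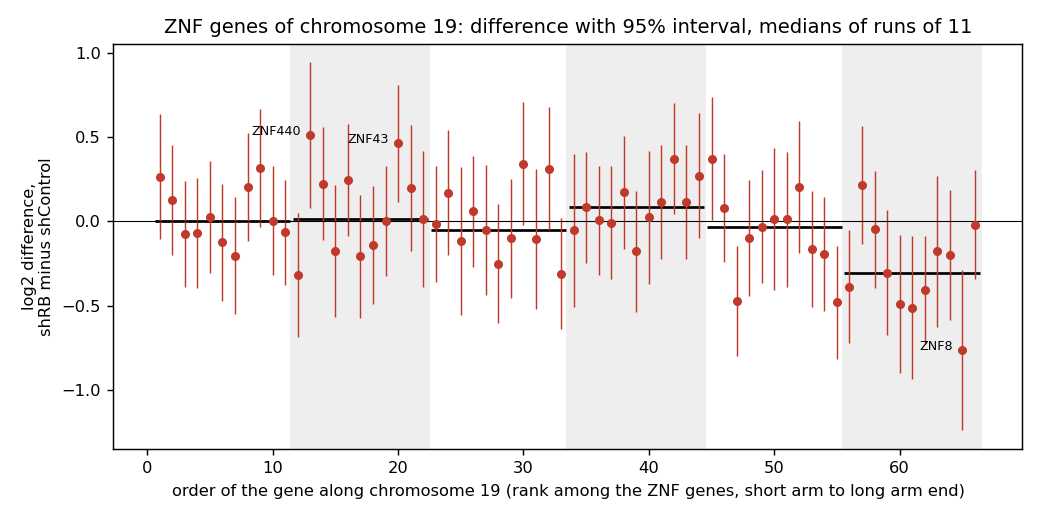
Log2 difference, shRB minus shControl, with its 95% interval (vertical axis), for the 66 ZNF genes of chromosome 19 in gene order (horizontal axis). Shading separates 6 runs of 11 genes and black lines mark their medians; the last run lies at -0.30 and the other medians between -0.05 and 0.08.

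The same stretch holds other genes. From ZNF543 to the chromosome end, 5 further genes had a mean log2 intensity above 6 (ZIK1, ZBTB45, TRIM28, CHMP2A and MZF1), and all 5 differences were negative, with a median of -0.27. That of MZF1 was only -0.03, and the arrays of MZF1 and ZBTB45 overlapped between groups. Among the 38 dimmer genes there, 15 differences were positive and 23 negative. TRIM28, the corepressor that KRAB domains bind, is one of the 5. It had 7.48, 7.39 and 6.93 in shRB and 8.04 and 7.85 in shControl. All shRB arrays lay below both shControl arrays, with a difference of -0.68 (SE 0.18, 95% interval -1.09 to -0.28) that did not pass (limma adjusted p = 0.0976). Removal of the constant of 16 gave a level 1.65-fold lower in shRB.

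The other partners of KRAB repression gave values on both sides of zero. Of 25 listed, with TRIM28 among them, 21 were measured, 0 passed in either direction (limma), 1 was at an unadjusted p under 0.05, which was TRIM28, and the median was -0.04 with 9 positive and 12 negative. EHMT2, which encodes G9a, differed by -0.54 (adjusted p = 0.313), with shControl arrays at 6.30 and 7.02. EHMT1, which encodes GLP, differed by 0.34 (adjusted p = 0.328). The HP1 genes CBX1, CBX3 and CBX5 stood at -0.22, 0.06 and 0.09.

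Promoter windows were taken from RefSeq (GRCh38.p14), from 250 bases before to 50 bases after an annotated start. They matched 126 of the 138 members, with 172 windows, and were set beside all 35116 windows of that length. The median GC share was 62.3% in the members' windows and 58.7% in all. The core of ETS factor sites, CCGGAAGT, was searched on both strands. It lay in 15.7% of the members' windows and 4.14% of all windows. The cAMP response element, TGACGTCA, which reads the same on both strands, lay in 8.14% and 1.85%. E2F sites, the targets of the factors that RB restrains, were searched as TTTCGCGC, TTTGGCGC, TTTCCCGC and TTTGCCGC on both strands, and 7.56% of the members' windows held at least 1, against 3.31% of all. The members with an E2F match were ZNF131, ZNF277, ZNF444, ZNF547, ZNF577, ZNF580, ZNF638, ZNF644, ZNF687, ZNF75A and ZNF90, and none of these passed. Of these 11, the arrays of 1 lay wholly higher in shRB and those of 0 wholly lower, against 20.6% and 15.4% of all genes. Longer motifs of ZNF143, NRF1 and YY1, given here by name, lay in 1.74%, 2.91% and 1.16% of the members' windows, against 0.231%, 1.24% and 0.849% of all. Matches are descriptions of letters and not evidence of binding, and windows of tandem copies are not independent.

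The ETS core was frequent at the end of chromosome 19. It lay in a window of 7 of the 11 members of the last run (ZNF134, ZNF324B, ZNF547, ZNF586, ZNF587B, ZNF776 and ZNF814), ZNF547 included, whose difference was positive. Of the 21 members with windows whose arrays lay wholly lower in shRB, 6 held it, and of the 21 wholly higher, 1 did, beside 26 of all 126 members with windows. The motif was chosen after the values were seen, and several of these genes are related copies. The windows of 3 members near the end that had low differences are shown because they carry this core, in capitals, close to the start site. All are on the plus strand of chromosome 19, ZNF776 at chr19:57746565-57746864, ZNF586 at chr19:57769426-57769725 and ZNF587B at chr19:57830049-57830348.
ZNF776: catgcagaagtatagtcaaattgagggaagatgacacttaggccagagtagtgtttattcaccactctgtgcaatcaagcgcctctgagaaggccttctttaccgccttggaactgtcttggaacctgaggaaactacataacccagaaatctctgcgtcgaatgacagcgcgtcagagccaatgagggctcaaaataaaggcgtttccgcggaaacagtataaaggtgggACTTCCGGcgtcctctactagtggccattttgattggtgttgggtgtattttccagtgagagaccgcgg
ZNF586: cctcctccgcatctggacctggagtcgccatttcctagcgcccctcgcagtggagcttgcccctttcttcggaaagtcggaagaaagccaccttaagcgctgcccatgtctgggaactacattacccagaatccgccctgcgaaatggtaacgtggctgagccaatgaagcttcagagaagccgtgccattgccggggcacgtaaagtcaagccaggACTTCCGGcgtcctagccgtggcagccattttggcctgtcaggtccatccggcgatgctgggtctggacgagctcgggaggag
ZNF587B: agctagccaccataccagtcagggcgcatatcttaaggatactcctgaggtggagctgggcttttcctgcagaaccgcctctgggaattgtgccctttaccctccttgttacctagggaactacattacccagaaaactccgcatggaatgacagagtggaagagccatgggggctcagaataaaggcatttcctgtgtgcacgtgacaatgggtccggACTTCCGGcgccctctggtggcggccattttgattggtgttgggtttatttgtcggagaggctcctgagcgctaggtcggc
The windows resemble each other. ZNF776 and ZNF587B aligned over 172 bases with 79.1% identity, ZNF776 and ZNF586 over 131 bases with 71.0%, and ZNF586 and ZNF587B over 134 bases with 70.1%. Their log2 differences were -0.49, -0.41 and -0.51 for ZNF776, ZNF587B and ZNF586. That of ZNF776 had to be negative, as its shRB mean of 5.82 lies below the threshold of 6.

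Neighbouring genes also shared the cAMP response element. ZNF460 and ZNF543 lie next to each other among the members at the long arm end and both had arrays wholly lower in shRB. ZNF460 had 7.34, 7.60 and 7.40 in shRB and 7.98 and 7.87 in shControl. ZNF543 had 6.48, 6.31 and 6.20 in shRB and 6.71 and 6.72 in shControl. Neither passed (limma adjusted p = 0.14 and 0.213). On the short arm, 5 consecutive members hold the element, ZNF266, ZNF426, ZNF121, ZNF561 and ZNF562. ZNF266 differed by -0.12, with arrays that overlapped. ZNF426 had 6.30, 6.42 and 6.07 in shRB and 6.46 and 6.48 in shControl, wholly lower in shRB, and its difference of -0.20 did not pass (limma adjusted p = 0.536). ZNF121 had 8.37, 8.29 and 8.42 in shRB and 8.22 and 8.08 in shControl, and ZNF561 had 6.44, 6.78 and 6.66 in shRB and 6.40 and 6.21 in shControl. ZNF121 and ZNF561 thus had arrays wholly higher in shRB, with differences of 0.21 and 0.32 that did not pass. ZNF562 stood at 7.74 in both groups (difference 0.00). The element, in capitals, was thus present beside differences of either sign. The windows shown are ZNF460 at chr19:57280235-57280534 and ZNF543 at chr19:57320222-57320521, both on the plus strand, and ZNF121 at chr19:9584455-9584754, ZNF561 at chr19:9621183-9621482 and ZNF562 at chr19:9675051-9675350, all on the minus strand.
ZNF460: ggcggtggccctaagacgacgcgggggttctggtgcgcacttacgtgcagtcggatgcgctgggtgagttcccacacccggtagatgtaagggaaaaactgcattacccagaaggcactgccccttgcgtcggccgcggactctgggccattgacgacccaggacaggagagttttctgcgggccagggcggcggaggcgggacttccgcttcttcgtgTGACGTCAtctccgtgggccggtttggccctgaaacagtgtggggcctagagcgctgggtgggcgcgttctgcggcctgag
ZNF543: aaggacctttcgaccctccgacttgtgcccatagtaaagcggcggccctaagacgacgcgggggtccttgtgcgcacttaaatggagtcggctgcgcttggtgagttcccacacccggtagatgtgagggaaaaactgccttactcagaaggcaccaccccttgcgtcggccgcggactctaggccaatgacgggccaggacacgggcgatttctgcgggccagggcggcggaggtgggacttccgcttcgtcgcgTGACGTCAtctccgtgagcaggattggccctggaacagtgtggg
ZNF121: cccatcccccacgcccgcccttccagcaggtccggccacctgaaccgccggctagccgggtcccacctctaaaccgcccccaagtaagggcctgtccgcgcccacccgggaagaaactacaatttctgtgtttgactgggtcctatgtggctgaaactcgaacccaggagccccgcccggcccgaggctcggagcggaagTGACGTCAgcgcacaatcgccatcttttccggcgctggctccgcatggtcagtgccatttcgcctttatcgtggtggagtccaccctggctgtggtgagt
ZNF561: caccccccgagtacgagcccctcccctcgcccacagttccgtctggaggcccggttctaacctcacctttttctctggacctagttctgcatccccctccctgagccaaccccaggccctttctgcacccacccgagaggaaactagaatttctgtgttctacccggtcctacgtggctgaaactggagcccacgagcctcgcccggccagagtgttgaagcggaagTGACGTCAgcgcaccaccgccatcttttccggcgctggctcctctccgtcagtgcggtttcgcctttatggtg
ZNF562: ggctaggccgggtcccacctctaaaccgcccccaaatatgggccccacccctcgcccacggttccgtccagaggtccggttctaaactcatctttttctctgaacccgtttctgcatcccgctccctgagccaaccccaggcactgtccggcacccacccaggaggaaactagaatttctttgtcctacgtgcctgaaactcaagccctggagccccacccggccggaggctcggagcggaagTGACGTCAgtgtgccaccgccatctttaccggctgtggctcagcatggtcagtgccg
ZNF460 and ZNF543 aligned over 262 bases with 89.3% identity. ZNF561 and ZNF562 aligned over 269 bases with 83.6% identity, ZNF121 and ZNF562 over 160 bases with 86.2%, and ZNF121 and ZNF561 over 187 bases with 84.0%.

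The spread between the shControl arrays limits what can be seen in these genes. Its median SD over the members was 0.16, against 0.11 for the other genes above the threshold, while the shRB median SD was 0.13 for both. In 89 of 138 members the gap between the shControl arrays was wider than the difference between groups, and this held in 2141 of the 4751 other genes above the threshold. The widest gaps were those of ZNF397, with 5.91 and 6.83, and ZNF131, with 5.59 and 6.51, whose differences were -0.05 and -0.04. Neither shControl array was higher throughout, since replicate 1 was the higher one in 77 of 138.

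**Figure D4:**
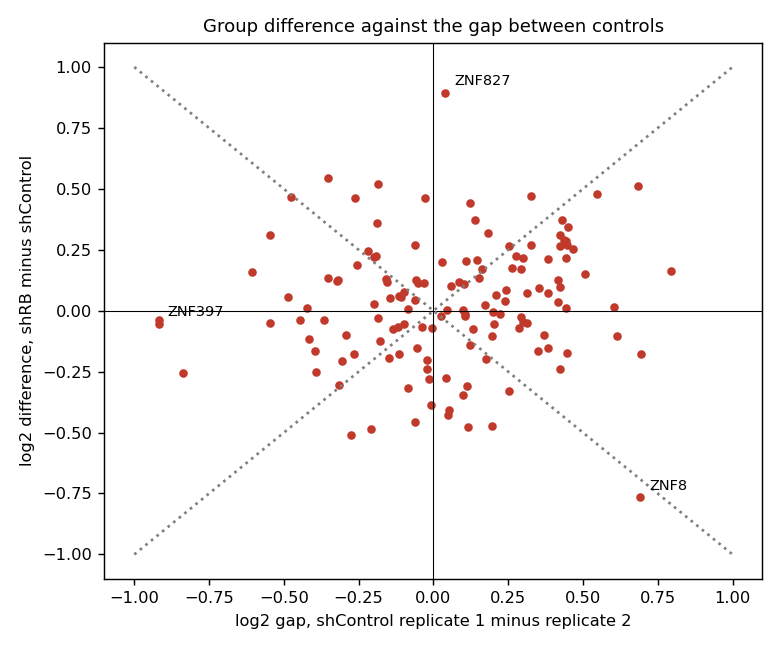
Log2 difference, shRB minus shControl (vertical axis), against the log2 gap between shControl replicates 1 and 2 (horizontal axis), 1 point for each of the 138 ZNF genes. Dotted lines mark equal size; the 89 genes to the left and right of them have a control gap wider than the difference, while ZNF827 stands far above with 6.12 and 6.08 in its controls.

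The brightest probe sets among the members were those of ZNF207, ZNF8, ZNF217, ZNF710, ZNF90 and ZNF24, with mean log2 intensities of 8.76 to 8.30. Probe brightness differs between probe sets, so this is no order of transcript abundance. ZNF710 differed by 0.06 and ZNF90 by -0.14, and neither passed. Next to the threshold of 6, ZNF431 (6.001), ZNF772 (6.01) and ZNF687 (6.01) lay just inside, with differences of 0.00, -0.05 and -0.04. Just outside lay ZNF286A (5.995), ZNF48 (5.98) and ZNF37A (5.98), with differences of 0.15, -0.03 and 0.36. Of the 138 members, 91 exceeded 6 on every array. By the shControl arrays alone 18 would have failed and 8 further genes would have entered, and the median difference of that set of 128 was -0.02. That choice favours genes that are high in shControl. A second named probe set existed for 8 members, with the same sign in 5, and none of the second probe sets passed.

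The related zinc finger families are given beside the shares of all genes, of which 0.695% were higher and 0.378% lower, and 10.9% and 7.22% at an unadjusted p under 0.05. Of the 329 dim ZNF genes, 2 were higher and 0 lower, and 54 and 15 at an unadjusted p under 0.05. Their arrays lay wholly higher in 89 and wholly lower in 34, against 20.6% and 15.4% of all genes, with 205 positive (62.3%) and a median of 0.09, where 54.4% of the 9594 other genes at or below the threshold were positive. The 2 that passed were ZNF500, which had 5.71, 6.08 and 6.04 in shRB and 5.07 and 5.12 in shControl (adjusted p = 0.0339), and ZNF34, which had 4.76, 4.72 and 4.73 in shRB and 4.06 and 4.02 in shControl (adjusted p = 0.0452). The shControl level of ZNF34 is close to a log2 of 4, the lowest value that any probe set takes. ZNF675 (0.72, adjusted p = 0.051) and ZNF501 (0.65, adjusted p = 0.0654) did not pass. Of 16 ZFP genes 0 passed (limma), 3 were higher and 0 lower at an unadjusted p under 0.05, and the median was 0.20. ZFP90 differed by 0.66 (adjusted p = 0.0697), ZFP82 by 0.63, ZFP30 by 0.55 and ZFP2 by 0.42. Of 39 ZBTB genes, which pair fingers with a BTB domain, 0 passed (limma), 6 were higher and 0 lower at an unadjusted p under 0.05, and the median was 0.06. ZBTB41, ZBTB40, ZBTB16 and ZBTB46 stood at 0.49, 0.53, 0.65 and 0.38. Of 26 ZSCAN and ZKSCAN genes 0 passed (limma), 2 were higher and 0 lower at an unadjusted p under 0.05, and the median was 0.06. ZSCAN31 stood highest among those named at 0.51 (ZSCAN4 0.36, ZSCAN22 0.31, ZSCAN30 0.31). Among 26 KLF and SP genes 1 passed. It was KLF7, with 5.25, 5.29 and 5.38 in shRB and 4.38 and 4.53 in shControl, which differ by 0.85 (adjusted p = 0.0226). KLF9 stood at -0.61 (adjusted p = 0.095), KLF6 at 0.34 and SP7 at 0.28.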

How the data were processed

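The authors deposited a table of linear intensity values, 1 per probe set and array, for 5 single-colour arrays of biotin-labelled cDNA, per the labels' protocols. How probes were summarised and normalized, with which software and on which build, is not given in the sources used here. The lowest value is 16.0, and the number of arrays limits the precision. Of 44607 probe sets, 15835 had 1 gene symbol, 0 had several and 28772 were unnamed here. Symbols, gene types and gene order came from NCBI RefSeq (GRCh38.p14) through Entrez identifiers, with all 15835 matched. Where a gene had several probe sets, the brightest by mean log2 intensity stood for it, which left 14812 genes.

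The deposited intensities were log2-transformed, and shRB was set against shControl in a limma model without covariates (limma 3.58.1, R 4.3.3). Tests were two-sided, p-values were adjusted over all 14812 genes by Benjamini-Hochberg, and an adjusted p below 0.05 counted as passing. The fit was also run on simulated data with independent noise and no array effects, which cannot show how it behaves on these arrays. Promoter windows were aligned locally with Biopython 1.88. Alternatives were quantile normalization, array medians, removal of the constant, a filter on dim genes, averaged probe sets, other variance models, array weights, a replicate block, other member thresholds and leaving out each array.

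Members and lists were chosen with earlier results of these data known. Named genes are RB1, members that passed, the 12 highest and 12 lowest differences without overlap, the 6 brightest, those next to the threshold and up to 4 per comparison list. Members described by role, as CRE carriers or for the gap between controls were chosen after their values were seen, as were the chromosome 19 runs and the motifs. Counts of zinc fingers and of KRAB domains were planned and are not analysed here.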

Additional observations from a re-analysis of the deposited data

How the results depend on the processing

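ZNF827 was the member that passed, and its difference stayed positive in all 13 alternative fits, at 0.86 to 1.03, with 8 of them past the threshold. The adjusted p ranged from 0.00222 to 0.151, and the cause of the lost calls was not tested, except that fewer arrays or residual degrees of freedom were left in the fits without an array and in the block. The number of members higher in shRB was 0 with 16 subtracted and 4 added, 0 with the replicate block, 2 with members above 5.5 and 0 with members above 7, and 0 to 2 when 1 array was left out. The number lower was 1 with trend and robust variances, which was ZNF8, and 0 to 1 when 1 array was left out. With members above 5.5 (234 genes), 135 differences were positive and the arrays of 51 lay wholly higher and of 32 wholly lower in shRB. With members above 7 (39 genes) these were 18, 5 and 9, and the median was -0.015. With members above 6 in shControl alone, a choice that favours genes high in shControl, 15 lay wholly higher and the median was -0.024. Without 1 array, positive differences numbered 70 to 83, wholly higher members 31 to 57, wholly lower ones 24 to 40, and the median was 0.02 to 0.05. With fewer arrays groups separate more easily, so these wholly higher and lower counts cannot be set against those of the full fit. Quantile normalization and median subtraction both left 71 of 138 positive. With symbols of ZNF and digits alone, an alternative chosen after seeing the data, 1 member was higher and 69 of 126 differences were positive. In the last run of chromosome 19, 1 to 4 of 11 differences were positive when 1 array was left out.

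Over all genes, 103 were higher and 56 lower. With 16 subtracted and 4 added these became 4 and 9. Without dim genes they were 267 and 118, with trend and robust variances 260 and 166, with array weights 52 and 36, and at an adjusted p of 0.1 350 and 167. Median subtraction gave 90 lower. Without 1 array they were 8 to 235 higher and 13 to 176 lower. RB1 passed without dim genes (-0.54, adjusted p = 0.0489), and without 1 array its difference was -0.60 to -0.49. With the replicate number as a block, 8 genes were higher and 16 lower, and ZNF827 stood at 0.86 (adjusted p = 0.151). Same-numbered arrays deviated with correlations of -0.02 and 0.05 over all genes, so the numbers were not taken to pair the arrays.

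Differences near zero changed sign in 13 of 416 comparisons of 32 named members. They were ZNF431 (-0.046 with quantile normalization, -0.013 with median subtraction, -0.018 with array weights, -0.029 with the replicate block, and -0.047 to 0.068 without 1 array), ZNF24 (0.031 with the replicate block, and -0.14 to 0.031 without 1 array), ZNF710 (-0.19 to 0.30 without 1 array), ZNF772 (-0.20 to 0.10 without 1 array) and ZNF687 (-0.22 to 0.14 without 1 array).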
